A study of Mus musculus with 4 samples.

Results

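Peaks of Eya1 were located at 9 genes of the Gdnf-Ret branching loop in E13.5 mouse kidneys. The genes were Gdnf, Ret, Gfra1, Spry1, Spry2, Spry4, Etv4, Etv5 and Dusp6, chosen by name for their place in this loop, out of 21951 protein-coding gene records of GENCODE release M21. In all, 5 of the 9 carried an Eya1 peak within 1 kb of a transcription start site (TSS) in at least 1 replicate. They were Gdnf, Spry1, Spry2, Etv5 and Dusp6, and 23.5% of all protein-coding genes carried such a peak. Only Spry2 carried one in both replicates, beside 11.5% of all genes. Ret, Gfra1, Spry4 and Etv4 carried none, and the 5 genes with a peak had no further peak within 100 kb of their start sites.

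The study mapped the genomic sites of Eya1 by chromatin immunoprecipitation and sequencing (ChIP-seq). All kidneys came from embryos with a knockin allele, Eya1 HA-FLAG, which places both tags on the Eya1 protein made from its own locus, and chromatin was collected on anti-FLAG M2 beads. There were 4 samples, comprising 2 Eya1 ChIP replicates, an input control and an IgG control, and each assay used 80 kidneys. The 2 Eya1 replicates form 1 group and the labels do not say whether their pools came from separate litters. Each deposited list gave the chromosome, start and end of its peaks, and 4041 of the replicate 1 peaks (94.5%) and 3534 of the replicate 2 peaks (84.6%) lay within 1 kb of a TSS. The lists hold no score or read count, so the depth behind a peak is unknown, a missing peak means only that none was listed, and no test between samples was possible. Input and IgG were not analysed here, and peak positions do not allow the kidney label to be checked against marker levels. Whole kidneys were used, so a peak cannot be assigned to a cell type.

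Gdnf is a growth factor secreted by the metanephric mesenchyme, the tissue that also holds the nephron progenitors. It binds the receptor tyrosine kinase Ret together with the membrane-anchored coreceptor Gfra1 on cells of the ureteric bud, and so drives the bud to grow out and to branch. Ret signalling raises the ETS transcription factors Etv4 and Etv5 at the bud tips, and the Sprouty proteins and the phosphatase Dusp6 restrain the Ras-MAPK cascade in feedback. Eya1 is a transcriptional coactivator and phosphatase that acts with sequence-specific DNA-binding partners, and mouse embryos without Eya1 fail to form kidneys.

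The sequences below are from 4 of the 5 genes with a promoter peak. They are shown because the choice of genes did not use base composition, which is described here for the peaks and further below for the promoters. Capitals mark CpG dinucleotides, and each sequence was read 5′ to 3′ on the sense strand of the gene from the GRCm38 assembly, which is the assembly of mm10. The Spry2 sequence is a whole peak of replicate 2 upstream of the gene (chr14:105896893-105897009, minus strand), with 9 CpGs in 117 bp. The others are the 200 bp on the midpoint of the replicate 1 peak. The Gdnf stretch (chr15:7811142-7811341, plus strand) is intronic with 13 CpGs, the Etv5 stretch (chr16:22439144-22439343, minus strand) is intronic with 17, and the Dusp6 stretch (chr10:99264030-99264229, plus strand) starts in 62 bp of coding exon and runs into an intron, with 13 CpGs.
Spry2: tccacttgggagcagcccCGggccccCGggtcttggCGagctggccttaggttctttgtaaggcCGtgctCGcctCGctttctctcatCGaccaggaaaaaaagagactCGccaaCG
Gdnf: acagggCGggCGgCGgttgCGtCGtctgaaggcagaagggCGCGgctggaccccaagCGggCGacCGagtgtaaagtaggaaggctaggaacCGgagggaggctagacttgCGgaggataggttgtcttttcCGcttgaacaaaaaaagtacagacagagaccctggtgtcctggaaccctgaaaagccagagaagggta
Etv5: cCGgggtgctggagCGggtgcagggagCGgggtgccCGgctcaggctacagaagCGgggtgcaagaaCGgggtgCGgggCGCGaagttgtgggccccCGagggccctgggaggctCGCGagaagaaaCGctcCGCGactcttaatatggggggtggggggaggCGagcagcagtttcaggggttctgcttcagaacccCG
Dusp6: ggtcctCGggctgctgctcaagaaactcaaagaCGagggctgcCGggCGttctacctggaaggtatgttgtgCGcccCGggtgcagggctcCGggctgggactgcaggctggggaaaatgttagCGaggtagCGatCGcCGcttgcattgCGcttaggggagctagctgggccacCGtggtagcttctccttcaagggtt

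CpGs were dense in all of these stretches. The ratio of observed to expected CpGs, which is 1 where CpGs are as frequent as the C and G content predicts, was 0.84 in the Spry2 stretch, 0.837 in the Gdnf stretch, 0.787 in the Etv5 stretch and 0.703 in the Dusp6 stretch. Over whole peaks it was 0.696 at Gdnf, 0.828 and 0.73 and 0.84 in the 3 peaks at Spry2, 1.07 at Spry1, 0.792 at Etv5 and 0.745 at Dusp6. The medians over all peaks were 0.774 in replicate 1 and 0.811 in replicate 2, so in this ratio the peaks at these genes lay on both sides of the median of their list. GC content was 60.1% at Gdnf, 62% at Spry2, 68.2% at Etv5 and 55.1% at Dusp6 in replicate 1, beside a median of 62.8%. In replicate 2 it was 57.9% and 60.7% at Spry2 and 69.5% at Spry1, beside a median of 68.7%. Only the Etv5 and Spry1 peaks were above the median GC content of their list.

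**Figure D1:**
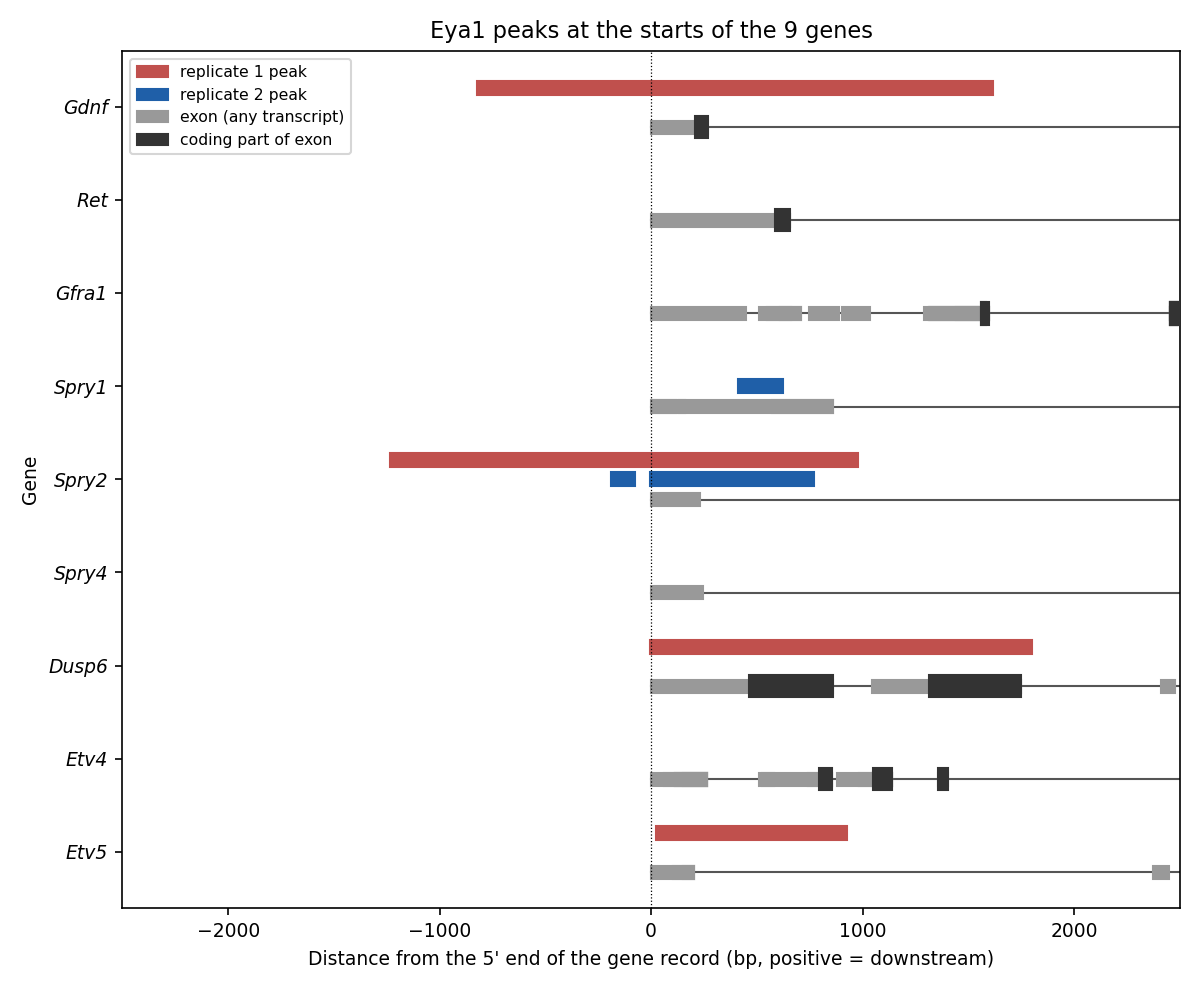
Map of each gene around its 5′ end (x axis, distance from that end in bp, positive downstream), with replicate 1 peaks in red, replicate 2 peaks in blue, exons in grey and coding parts in black. Spry2 is the only gene with bars of both colours. The Ret, Gfra1, Spry4 and Etv4 lines carry no bar.

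Counted over the genes, a peak within 1 kb of a TSS in either list was found at 5 of 9 (55.6%, exact Clopper-Pearson 95% CI 21.2 to 86.3%), and at 23.5% of all protein-coding genes. Replicate 1 listed such a peak at 4 of the 9 genes, beside 20.2% of all genes, and replicate 2 at 2, beside 14.7%. Both lists held one at 1 of the 9 genes (11.1%), beside 11.5% of all genes. The mean over the lists was 3 ± 1.41 genes (SD, n = 2). The cutoff and control behind each list were not stated, so this SD cannot be read as biological spread alone. The interval of the share in either list contained the share of all genes, and a difference from the rest of the genome was not tested. Intervals cover counting error alone and treat the 9 genes as a random sample, which genes chosen by name are not. The 9 genes also differed from all genes in promoter composition. By the limits given further below, 7 of the 9 promoters were CpG-rich, beside 41.3% of all. Of the 5151 genes with a promoter peak in either list, 48.9% had one in both, 37.4% only in replicate 1 and 13.7% only in replicate 2, and the corresponding counts here were 1, 3 and 1 of 5.

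**Figure D2:**
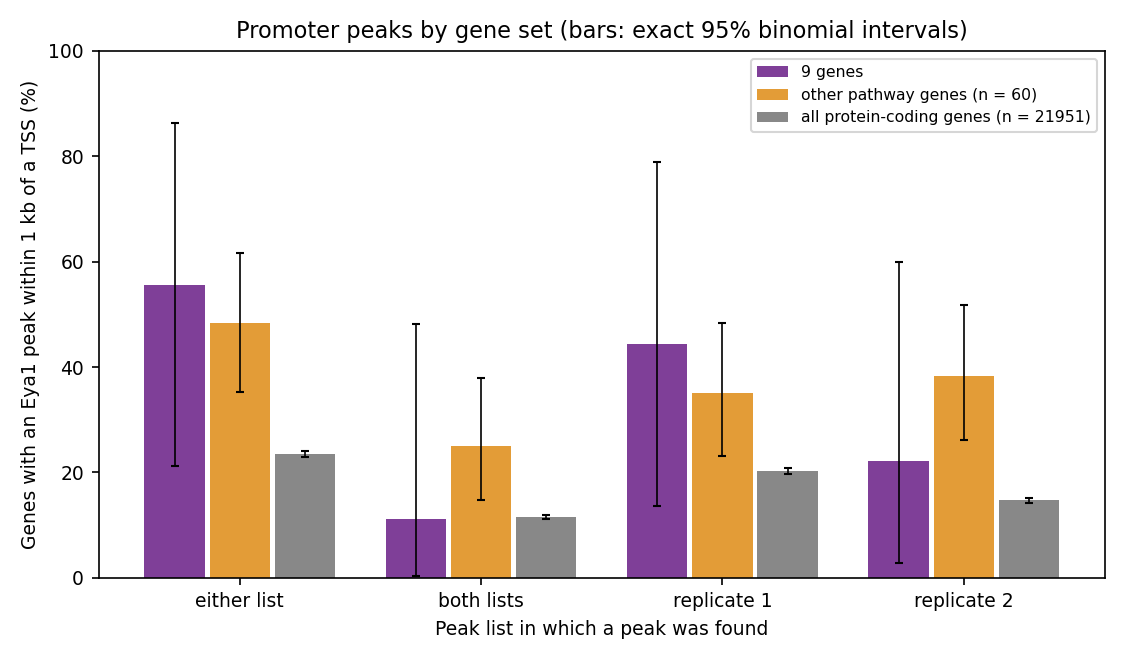
Share of genes with an Eya1 peak within 1 kb of a TSS (y axis, %) in either list, both lists and each replicate, for the 9 genes, 60 other genes of the pathway and all 21951 protein-coding genes; error bars are exact 95% binomial intervals. The bars of the 9 genes run from 11.1% in both lists to 55.6% in either list, with intervals that overlap those of the other sets.

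Gdnf, the ligand, was occupied at its start in replicate 1 only. The gene (ENSMUSG00000022144.4) has a single annotated transcript on the plus strand at chr15:7810846-7837575. The replicate 1 peak lay at chr15:7810021-7812461. It was 2441 bp wide and spanned 825 bp upstream of the start to 1615 bp downstream of it. Upstream sequence made up 33.8% of it, and the remainder held 208 bp of UTR, 61 bp of coding exon and 1347 bp of the first intron. It was as wide as, or wider than, 96.2% of the promoter peaks of its list. Replicate 2 listed no peak there, and its nearest peak was 358 kb away, a distance within which 71.6% of genes had a replicate 2 peak.

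Ret and Gfra1, the receptor kinase and its coreceptor, had no Eya1 peak in the gene, at the promoter or within 100 kb in either list. Ret (ENSMUSG00000030110.13) lies on the minus strand at chr6:118151745-118197718 and has 2 start sites, from which the nearest peaks were 257 kb away in replicate 1 and 289 kb away in replicate 2. Gfra1 (ENSMUSG00000025089.15), on the minus strand at chr19:58235604-58455909, is the longest of the 9 genes at 220306 bp and has 9 start sites. Its nearest peaks were 842 kb away in replicate 1 and 843 kb away in replicate 2, and 87% and 84.5% of all genes had a peak at least as near.

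The Sprouty genes encode inhibitors of receptor tyrosine kinase signalling that act on the Ras-MAPK cascade, and the 3 of them differed from one another. Spry2 (ENSMUSG00000022114.5, minus strand, chr14:105891947-105896819) was occupied in both replicates. The replicate 1 peak, at chr14:105895842-105898056, was 2215 bp wide and reached from 1237 bp upstream of the start to 977 bp downstream. It covered both replicate 2 peaks. The larger of these, at chr14:105896051-105896825, was 775 bp wide, began 6 bp upstream of the start and ran 768 bp into the gene over 232 bp of UTR and 537 bp of intron. The smaller is the 117-bp peak shown above, which lay from -190 to -74 bp relative to the start and had the minimum width of its list. The larger peaks ranked high in their own lists, at or above 94.1% and 98.3% of promoter peaks in width.

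Spry1 (ENSMUSG00000037211.12, plus strand, chr3:37639947-37644598) had a peak in replicate 2 only. It lay at chr3:37640359-37640571, was 213 bp wide and began 279 bp from the nearest of 3 start sites. All of it was inside the gene, 412 to 624 bp downstream of its 5′ end, and fell in a stretch that is UTR in at least 1 transcript. Its width was at or above that of 55.1% of the promoter peaks of replicate 2. The nearest replicate 1 peak was 327 kb away.

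Dusp6 encodes a phosphatase that inactivates the ERK kinases, and it was occupied in replicate 1 only. The gene (ENSMUSG00000019960.8) lies on the plus strand at chr10:99263231-99267489. Its peak, at chr10:99263227-99265031, was 1805 bp wide, began 4 bp before the start and lay inside the gene over 99.8% of its length. It held 838 bp of coding exon, more than any other peak at these genes. No replicate 2 peak lay nearer than 2645 kb, and 95.2% of all genes had one at least as near.

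The ETS factors are paralogues that act downstream of Ret in the ureteric tips, and a peak was listed at Etv5 and not at Etv4. Etv5 (ENSMUSG00000013089.15) is on the minus strand at chr16:22381309-22439719. Its replicate 1 peak at chr16:22438791-22439696 was 906 bp wide and lay wholly inside the gene, from 23 to 928 bp downstream of the 5′ end, over 180 bp of UTR and 726 bp of intron. The peak overlapped an annotated start site of Etv5 other than that 5′ end. This was the narrowest replicate 1 peak at these genes, at or above 33.1% of promoter peaks of its list. The nearest replicate 2 peak was 136 kb away. Etv4 (ENSMUSG00000017724.14, minus strand, chr11:101769742-101785371) has 10 annotated start sites, and none had a peak within 100 kb in either list.

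The promoters of these paralogues and of Spry1 are shown for comparison. The peaks of Etv5 and Spry1 began downstream of the 5′ end of the gene, and Etv4 had no promoter peak. Each sequence is the 250 bp before the 5′ end of the gene, on its sense strand in GRCm38, and capitals mark matches on either strand to a panel of 8 short motifs described further below. Positions are chr16:22439720-22439969 for Etv5, chr11:101785372-101785621 for Etv4 and chr3:37639697-37639946 for Spry1. The Etv5 stretch holds SP (GGGCGG), NFY (CCAAT), AP-1 (TGANTCA) and TATA-box (TATAAA) letters, the Etv4 stretch a pair of NFY matches and the Spry1 stretch 1 SP and 1 NFY match.
Etv5: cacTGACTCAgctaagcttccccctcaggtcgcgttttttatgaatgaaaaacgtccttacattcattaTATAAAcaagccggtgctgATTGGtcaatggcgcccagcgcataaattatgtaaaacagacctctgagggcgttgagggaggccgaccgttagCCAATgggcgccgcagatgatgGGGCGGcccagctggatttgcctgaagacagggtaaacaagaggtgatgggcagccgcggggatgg
Etv4: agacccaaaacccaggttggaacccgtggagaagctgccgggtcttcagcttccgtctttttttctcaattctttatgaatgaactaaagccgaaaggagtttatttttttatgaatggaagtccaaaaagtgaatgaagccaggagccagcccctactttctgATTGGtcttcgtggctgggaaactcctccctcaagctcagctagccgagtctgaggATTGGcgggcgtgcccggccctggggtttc
Spry1: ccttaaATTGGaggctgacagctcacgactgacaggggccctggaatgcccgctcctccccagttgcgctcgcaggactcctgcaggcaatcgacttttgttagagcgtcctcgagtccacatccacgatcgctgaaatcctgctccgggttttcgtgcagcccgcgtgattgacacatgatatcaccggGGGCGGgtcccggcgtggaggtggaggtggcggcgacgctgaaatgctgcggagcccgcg

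The genes with a peak all had CpG-rich promoters, and both genes whose promoter was not CpG-rich had none. In the 300 bp from 250 bp before to 50 bp after the 5′ end, 7 of the 9 were CpG-rich, with a GC content of at least 50% and an observed to expected CpG ratio of at least 0.6. This definition was chosen after the peaks had been seen. Among the CpG-rich genes, 5 of 7 had a promoter peak in either list, beside 42.8% of all CpG-rich promoters, and 1 of 7 in both lists, beside 21.2%. Neither Ret nor Etv4 was CpG-rich, and 0 of these 2 had a peak, beside 9.91% of all other promoters. Gdnf had the highest GC content, at 70% (at or above 90.1% of promoters), and Etv4 the lowest, at 51%. The CpG ratio was 0.951 at Spry2, 0.942 at Spry4, 0.935 at Spry1, 0.817 at Gdnf, 0.813 at Etv5, 0.802 at Dusp6, 0.765 at Gfra1, 0.571 at Etv4 and 0.568 at Ret. Gfra1 and Spry4 thus had CpG-rich promoters and no listed peak. Across all genes the median ratio was 0.828 with a peak in both lists, 0.804 in replicate 1 only, 0.788 in replicate 2 only and 0.384 with none. The median over all protein-coding genes was 0.525, so Ret and Etv4 lay under the limit of 0.6 but above that median.

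**Figure D3:**
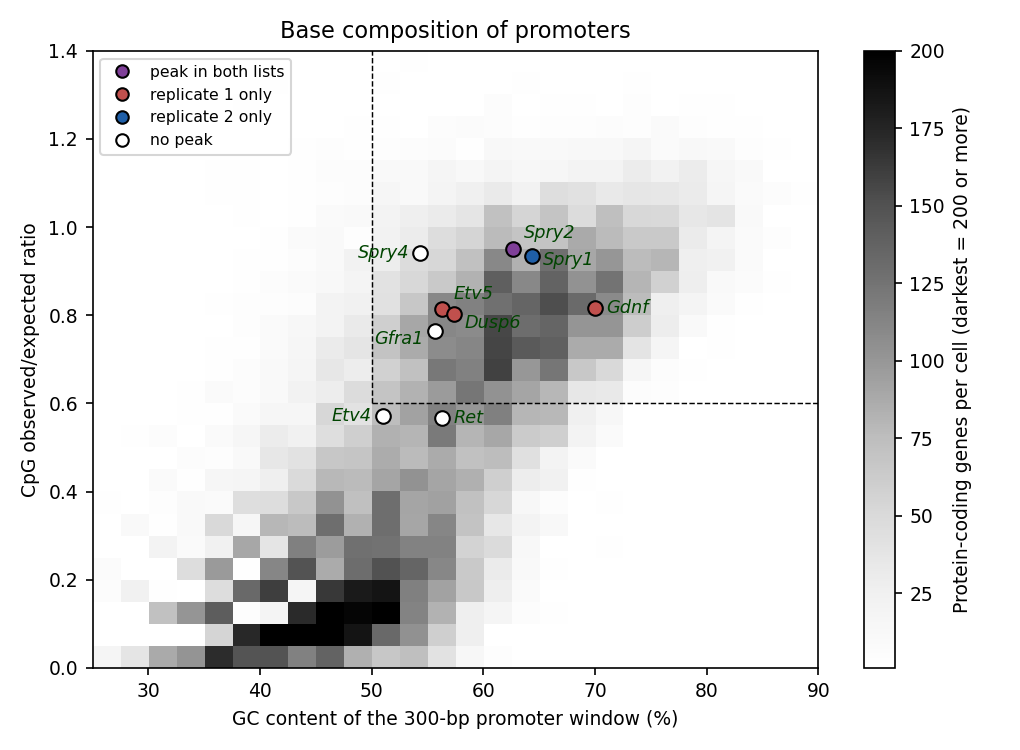
GC content (x axis, %) and observed to expected CpG ratio (y axis) of the 300-bp promoter windows; grey cells give the number of protein-coding genes, points are the 9 genes coloured by the list that held a peak, and dashed lines mark the limits of 50% and 0.6. The 5 genes with a peak lie inside the CpG-rich field with Gfra1 and Spry4, and Ret (0.568) and Etv4 (0.571) lie just under it.

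In these 300-bp promoter windows, no motif of the panel was shared by all genes with a peak. The counts below are for the windows and not for the peaks. The Spry1 peak, 412 to 624 bp downstream of the 5′ end, lay outside its window. Most of the Etv5 peak, 23 to 928 bp downstream, did too. SP (GGGCGG) matched 6 of 9 windows, beside 43% of all promoters, and was present at Gdnf, Spry1 and Etv5 but also at Ret, Spry4 and Etv4. NFY (CCAAT) matched 4 windows, beside 39%, with 4 matches at Etv5, 2 at Etv4 and 1 each at Spry1 and Dusp6. The ETS core CCGGAA, the kind of site that Etv4 and Etv5 recognise, was present at Spry2 and Spry4, beside 17.5% of promoters. AP-1 (TGANTCA) was present at Gfra1 and Etv5, beside 6.91%, and the TATA-box (TATAAA) at Etv5, beside 12.6%. CRE (TGACGTCA), E-box (CACGTG) and the MEF3 site (TCAGGTTNC) matched 0 of the 9 windows, beside 2.43%, 7.75% and 1.39% of promoters. Both strands were searched, and no motif of the panel contains another. A match describes letters, and says nothing of whether a protein binds there.

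RE1 is the element recognised by the repressor REST, and it was searched for as a consensus of 17 letters, some of which allow more than 1 base. Allowing at most 2 mismatches anywhere in a peak, it was found in 2 of the peaks at these genes, the replicate 1 peaks of Gdnf and Spry2, each with 2 mismatches. Their centres lay at -676 bp and -940 bp from the peak midpoints in chromosome coordinates. A match of this kind was present in 17.5% of all replicate 1 peaks and in 23.8% of those at least 2000 bp wide, the width class of both peaks.

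Inside the genes, a peak touched the gene body of 5 of 9 in either list, beside 23.8% of all genes, of 4 in replicate 1, beside 20.4%, and of 2 in replicate 2, beside 14.5%. These were the peaks already described at the starts. Beyond 1 kb of a TSS, only the Gdnf peak reached further into its gene, and 0 genes had a separate peak there. Within 100 kb of a TSS, a peak was found at 5 of 9 genes in either list, beside 58.2% of all genes, at 4 in replicate 1, beside 53.2%, and at 2 in replicate 2, beside 46.4%. Within 100 kb the 9 genes (55.6%) were thus close to the share of all genes. No gene of the 9 had a distal peak within 100 kb, meaning one over 1 kb from every annotated TSS, beside 7.3% of all genes.

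Between 100 and 200 kb from a TSS, 6 peaks lay at 4 of the 9 genes, beside 48.8% of all genes with a peak at that distance, and 4 of the 6 were at the start sites of other genes. At 135 kb and 136 kb from the nearest Etv5 start, replicate 1 and replicate 2 listed overlapping peaks of 1624 bp and 603 bp at Tra2b (chr16:22264832-22266455 and chr16:22265173-22265775). At 155 kb upstream of Dusp6, replicate 1 listed a peak of 1479 bp at Galnt4 (chr10:99107061-99108539). The last 2 of the 6 were distal and overlapped each other, 169.171 kb from the nearest Etv4 start in replicate 1 and 169.415 kb in replicate 2. A distal peak at that distance was thus listed at 1 of the 9 genes, beside 7.03% of all genes in either list and 2.33% in both. The Etv4 peaks spanned 461 bp (chr11:101602550-101603010) and 174 bp (chr11:101602593-101602766), and the nearest coding start was that of Gm11634, 3294 bp and 3337 bp away. Their CpG ratios were 0.146 and 0.168, far under those of the promoter peaks. Both held an RE1 element with 0 mismatches at chr11:101602672-101602688 (plus strand), whose centre lay at -100 bp from the replicate 1 midpoint and 0.5 bp from the replicate 2 midpoint. Such a match was present in 2.17% of all replicate 1 peaks and 5.07% of all replicate 2 peaks, and in 22% and 24.6% of their distal peaks. The element is shown as the one here that matched the consensus in full.
RE1 element: ttcagcaccagggacag

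**Figure D4:**
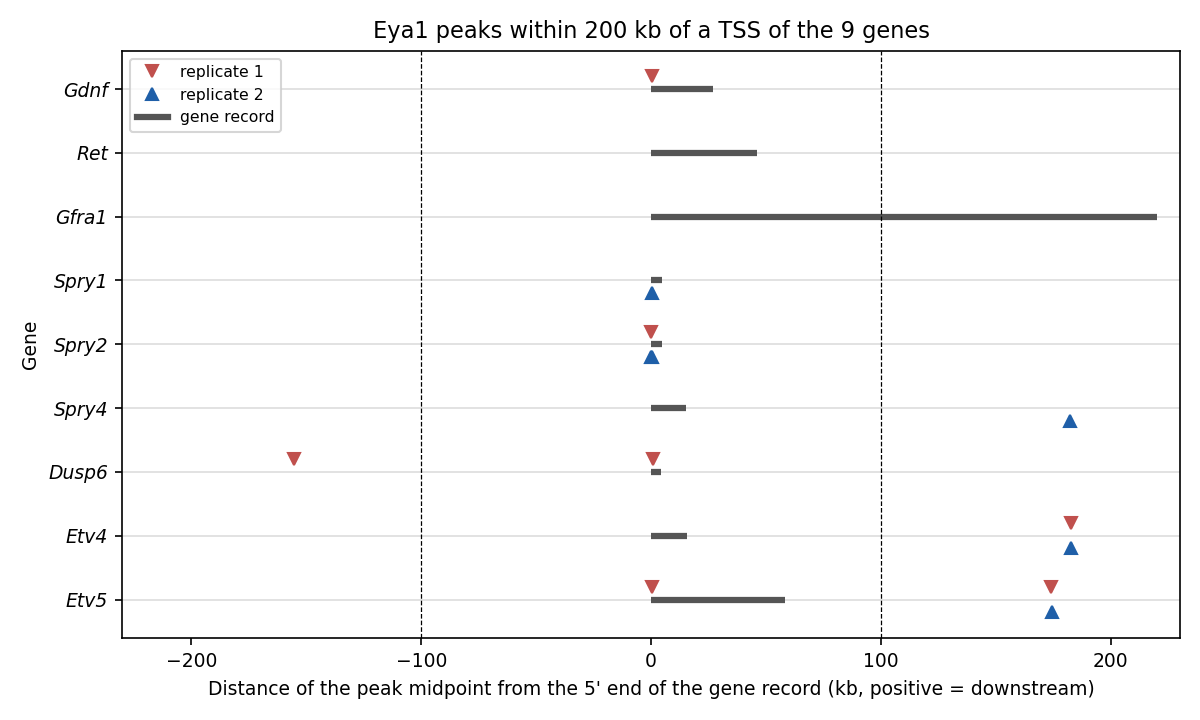
Midpoints of Eya1 peaks within 200 kb of a TSS of each gene (x axis, kb from the 5′ end, positive downstream); red triangles are replicate 1, blue triangles replicate 2, bars the gene records and dashed lines 100 kb. Peaks stand at the start or past 100 kb, and the pairs of opposite colour past 100 kb belong to Etv4 and Etv5.

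Spry4, the remaining Sprouty gene, had no peak at its promoter, in its body or within 100 kb in either list. The gene (ENSMUSG00000024427.7) lies on the minus strand of chromosome 18, from 38586247 to 38601415. Its nearest peaks were 304 kb away in replicate 1 and 182 kb away in replicate 2. The latter was 293 bp wide and lay 137 bp from the start of Ndfip1.

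The lists differed in the size of their peaks, and the peaks at these genes followed their list. Replicate 1 peaks had a median width of 1069 bp, against 188 bp for replicate 2, and the promoter peaks alone had medians of 1099 bp and 199 bp. In replicate 1 the widths were 2441 bp at Gdnf, 2215 bp at Spry2, 1805 bp at Dusp6 and 906 bp at Etv5, so 3 of 4 were above the median. In replicate 2 they were 775 bp and 117 bp at Spry2 and 213 bp at Spry1. Midpoints lay downstream of the 5′ end at Gdnf (395 bp), Etv5 (475.5 bp), Spry1 (518 bp) and Dusp6 (898 bp) and for the larger replicate 2 peak of Spry2 (381 bp), and upstream of it for the other peaks of Spry2. Among promoter peaks within 1 kb of a coding start, 3989 in replicate 1 and 3465 in replicate 2 were counted. Of these, 76.7% and 79.5% had their midpoint downstream of the nearest coding start. Where a peak covered several coding starts, the first by gene name was used.

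**Figure D5:**
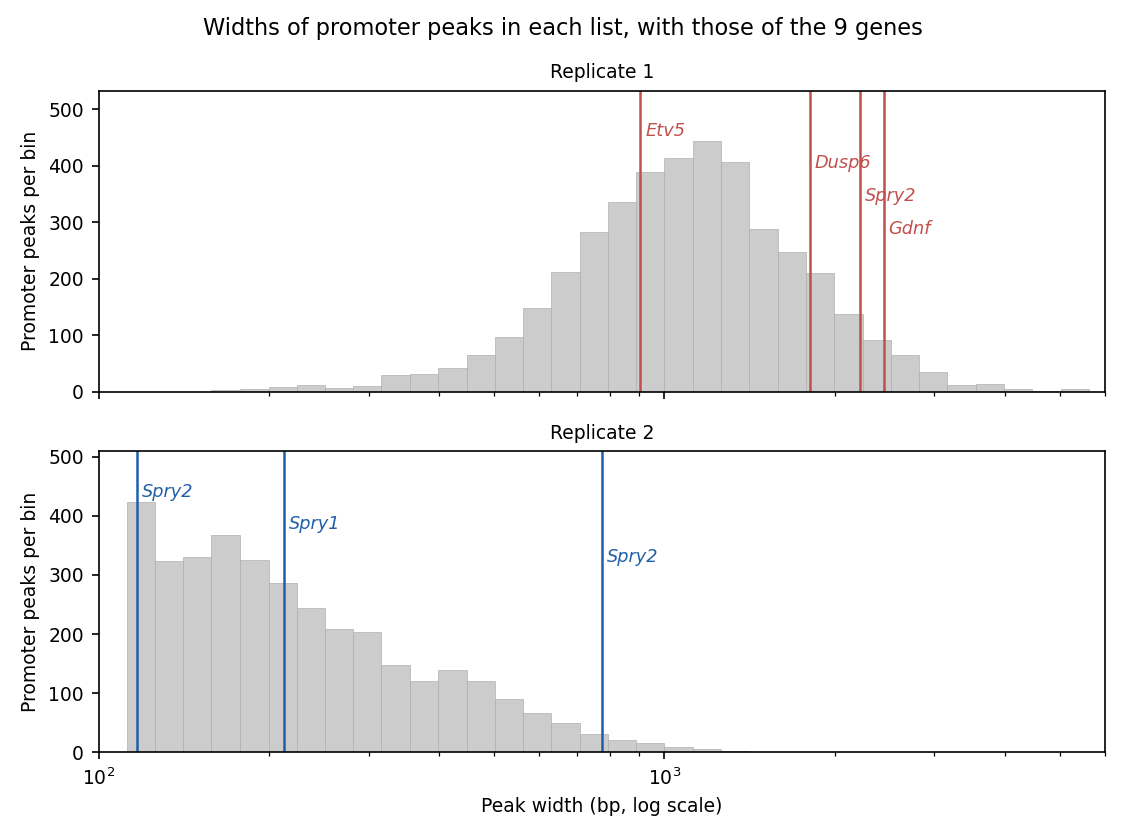
Number of promoter peaks (y axis) by width (x axis, bp, log scale) in replicate 1 and replicate 2, with vertical lines at the widths of the peaks of the named genes. Gdnf (2441 bp) and Spry2 (2215 bp) stand in the upper tail of replicate 1, and the Spry2 peaks of 775 bp and 117 bp stand at opposite ends of replicate 2.

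Width also went with whether a peak overlapped one of the other list by at least 1 bp. A wider peak has more bases that can overlap, and how far this alone gives the trend was not tested. In replicate 1, 55.7% of promoter peaks overlapped a replicate 2 peak, 42.6% of those under 1000 bp, 63% of those of at least 1000 but under 2000 bp and 75.6% (95% CI 70.9 to 80%) of those of 2000 bp or more. The Gdnf peak was in the widest class and had no counterpart, while the Spry2 peak of the same class had 2. Dusp6, in the middle class, and Etv5, in the narrowest, had none. In replicate 2, 85.3% of promoter peaks of at least 200 but under 500 bp overlapped a replicate 1 peak, and the Spry1 peak of 213 bp was among those that did not.

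The other genes of the pathway were counted by role, from a list of 61 of which 60 were found in the annotation. A promoter peak was present at 29 of the 60 in either list (48.3%, 95% CI 35.2 to 61.6%), beside 23.5% of all genes, and at 15 in both (25%, 95% CI 14.7 to 37.9%), beside 11.5%. Of the 60 genes, 44 had CpG-rich promoters. A peak in either list was present at 24 of the 44 (54.5%, 95% CI 38.8 to 69.6%), beside 42.8% of all CpG-rich promoters. In both lists it was present at 12 of the 44 (27.3%, 95% CI 15 to 42.8%), beside 21.2%. Of the 16 others, 5 had one in either list (31.2%, 95% CI 11 to 58.7%), beside 9.91% of all promoters of that kind. In both lists 3 of the 16 had one (18.8%, 95% CI 4.05 to 45.6%), and the share over all such promoters was not counted. The list was chosen with earlier results known, and the CpG limits after the peaks had been seen. Intervals cover counting error only and treat the genes as a random sample, which a chosen list is not. These shares were not tested. The other Gdnf-family ligands and their coreceptors, such as Nrtn, Artn and Gfra2, had a peak at 0 of 6 genes in either list. Of these 6, 4 had CpG-rich promoters. At the adaptors and docking proteins, which link the activated receptor to Ras and to lipid signalling, 12 of 17 had a peak in either list, and 8 had one in both, and 14 of the 17 were CpG-rich. These 8 were Shc1, Frs2, Grb10, Gab2, Ptpn11, Sos2, Plcg1 and Pik3ca. In the Ras-MAPK cascade 9 of 10 genes had a peak in either list, and 4 had one in both, Hras and Map2k2 among them. The exception was Araf, which was also the one cascade gene whose promoter was not CpG-rich. Among the other roles, Grb10, Dusp1 and Mmp14 had promoters that were not CpG-rich and a peak in both lists.

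Among 14 further feedback inhibitors of the same or related families, 6 had a peak in either list, and 10 of the 14 were CpG-rich. Over all genes, 23.5% had a peak in either list, and 42.8% of those with CpG-rich promoters did. Differences between roles were not tested. The MAP kinase phosphatase genes Dusp1 and Dusp7 had a peak in both lists. The Dusp1 peaks were 1323 bp wide in replicate 1 and 130 bp in replicate 2, and those at Dusp7 were 1276 bp and 434 bp. The related ETS factor Etv1 had none. Of 7 genes that depend on Ret in the ureteric tip, 1 had a peak, the membrane-bound metalloprotease gene Mmp14, in both lists, with 2462 bp in replicate 1 and 667 bp and 171 bp in replicate 2. Wnt11, a tip-derived signal, and the chemokine receptor gene Cxcr4 had no peak. Of the 7 genes, 5 had CpG-rich promoters. Of 5 further modulators of Gdnf-Ret branching, 1 had a peak, the Slit receptor gene Robo2, with 125 bp in replicate 2 only. Of the 5, 2 had CpG-rich promoters, and Robo2 did not.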

How the data were processed

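Eya1 ChIP-seq of E13.5 kidneys was reported as peak lists. Per the study's methods the authors mapped the ChIP-seq reads to mm10 by Bowtie. They used MACS, with several P value thresholds and either control, for the peak calls, keeping those in common. The submitters' processing notes name HISAT2, which the study's methods give for its RNA-seq reads. The cutoff and control behind each list were not stated. The deposited lists have 3 columns, which are chromosome, start and end, and coordinates are printed 1-based.

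Peaks were assigned to GENCODE M21 genes by overlap of at least 1 bp with the gene body, or by distance to any annotated TSS (132758 positions over all genes). All 9 genes are named. Of 60 pathway genes, those with a promoter peak in both lists are named by rule (some are not reported here), and others (Nrtn, Artn, Gfra2, Araf, Etv1, Wnt11, Cxcr4, Robo2) were chosen after their values were seen. Genes and lists were chosen with earlier results of these data known. Python 3.11.15, scipy 1.17.1 and pysam 0.24.0 were used. bedtools 2.31.1 gave the same 4444 and 3227 genes with a promoter peak. In a check of the code, peaks planted within 1 kb of a TSS were called at 200 of 200 genes in each list. The planting used the same 1 kb rule as the calls, so this says nothing of the sensitivity of the deposited lists. No p-value was computed, since both samples are 1 group. Alternatives covered distances, start-site sets, peak widths, motif stringency and leaving out each replicate.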

Additional observations from a re-analysis of the deposited data

How the results depend on the processing

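Of 57 alternative values for 9 results, 46 stayed within 1.5 times the reported count and 11 did not. Leaving out 1 replicate gave 2 (without replicate 1) to 4 (without replicate 2) of the 9 genes with a peak, alike for promoters, gene bodies and 100 kb, and 0 to 2 genes with an RE1 match. These RE1 counts covered only peaks within 100 kb of a TSS, so they leave out the Etv4 peaks with an exact match. They fell to 0 with no mismatch, with 1 mismatch or in 200 bp on the midpoint. Requiring peaks to cover 50% of each other left 0 genes in both lists, as the Spry2 peaks differ in width. Gene bodies without the parts within 1 kb of a TSS were touched at 1 gene, by the Gdnf peak that spans its start, and leaving out every peak within 1 kb of a TSS, an alternative chosen after seeing the data, left 0. Distal peaks within 200 kb were found at 1 gene, Etv4. No paired analysis was possible because both Eya1 samples are 1 group. Depth is unknown.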
